A study of Mus musculus with 21 samples.

Results

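The miR-17~92 cluster is a group of 6 miRNA hairpins cut from 1 primary transcript, and its 9 main mature products are followed here through the development of the mouse auditory system. The 9 were chosen by name, as the main products of the host gene Mir17hg, and all 9 were among the 1647 miRNAs of the deposited count table. The 21 small RNA libraries covered the cochlea and the superior olivary complex (SOC), an auditory nucleus group of the brainstem that compares sound from both ears, at embryonic day 16 (E16), on the day of birth (P0) and at postnatal day 16 (P16), after hearing onset. Cochlear libraries held inner ear sensory epithelium of C57BL/6JOlaHsd mice and numbered 2 at E16, 4 at P0 and 4 at P16. SOC libraries, labelled as neuronal tissue of C57Bl6/J mice, numbered 4, 4 and 3. All animals were untreated wild types of both sexes, and tissue of several animals was pooled in each sample. Cochlear RNA was isolated with a Direct-zol kit and made into libraries with the SMARTer smRNA-Seq kit, whereas SOC RNA came from an innuPREP miRNA kit and TruSeq small RNA libraries. Organ and kit therefore cannot be told apart in a level, and only changes over time were compared between the organs.

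A miRNA is a short RNA that guides Argonaute proteins to messenger RNAs, mostly through its seed, bases 2 to 8 from the 5′ end, and lowers their stability and translation. Each hairpin can give a product from its 5′ arm (5p) and one from its 3′ arm (3p), and usually one arm is kept and the other is degraded. The miR-17~92 transcript is induced by MYC and E2F factors and is known as a driver of proliferation in progenitor cells, and among its best known targets are Bcl2l11 and Cdkn1a. Mammals carry a pair of paralog clusters, miR-106b~25 and miR-106a~miR-363, whose products share several of these seeds.

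The host gene Mir17hg (ENSMUSG00000089726.2) lies on the plus strand at chr14:115042879-115046727 in GRCm38 with GENCODE M21 annotation. The 6 hairpins lie in an exon of its transcript Mir17hg-201 and span 836 bp, chr14:115043671-115044506. The mature sequences, from RefSeq annotation of GRCm38, are shown in the order of transcription because their seeds define the groups used below and their few differing bases decide how safely reads can be assigned. Capitals mark the seed, and the prefix mmu of the table, for mouse, is left out afterwards except where a product's values begin.
mmu-miR-17-5p: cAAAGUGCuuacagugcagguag
mmu-miR-17-3p: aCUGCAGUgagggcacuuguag
mmu-miR-18a-5p: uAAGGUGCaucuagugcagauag
mmu-miR-18a-3p: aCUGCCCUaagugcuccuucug
mmu-miR-19a-3p: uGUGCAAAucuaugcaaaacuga
mmu-miR-20a-5p: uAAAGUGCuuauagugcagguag
mmu-miR-20a-3p: aCUGCAUUacgagcacuuaaag
mmu-miR-19b-3p: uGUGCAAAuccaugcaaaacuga
mmu-miR-92a-3p: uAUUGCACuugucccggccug

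The 9 products fell into 7 seeds. AAAGUGC was shared by miR-17-5p and miR-20a-5p, AAGGUGC was that of miR-18a-5p, GUGCAAA was shared by miR-19a-3p and miR-19b-3p, and AUUGCAC was that of miR-92a-3p. The 3p arms miR-17-3p, miR-18a-3p and miR-20a-3p each had a seed of their own within the cluster. The relatives outside the cluster that differ from a product of the cluster by the fewest bases are shown because their reads could be mixed with those of the cluster, together with miR-93-5p and miR-25-3p, which share a seed with it and appear in the seed families below.
mmu-miR-106a-5p: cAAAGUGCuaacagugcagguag
mmu-miR-20b-5p: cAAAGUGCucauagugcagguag
mmu-miR-106b-5p: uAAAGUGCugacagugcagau
mmu-miR-18b-5p: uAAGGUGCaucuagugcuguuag
mmu-miR-18b-3p: uACUGCCCuaaaugccccuucu
mmu-miR-92b-3p: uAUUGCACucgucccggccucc
mmu-miR-93-5p: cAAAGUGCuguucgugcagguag
mmu-miR-25-3p: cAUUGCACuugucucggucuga

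miR-17-5p differed from miR-106a-5p at 1 base of 23 and from miR-20a-5p at 2. The pair miR-19a-3p and miR-19b-3p also differed at 1 base of 23. At 2 bases lay miR-20b-5p from both miR-17-5p and miR-20a-5p, miR-18b-5p from miR-18a-5p, miR-18b-3p from miR-18a-3p and miR-92b-3p from miR-92a-3p, and at 3 lay miR-106b-5p from miR-17-5p and miR-20a-5p and miR-25-3p from miR-92a-3p. miR-19b-3p and miR-92a-3p have 2 hairpins each, on chromosomes 14 and X, with the same mature sequence, so that counts of these 2 miRNAs can come from either locus. How the counting step divided reads among near-identical miRNAs is not given in the sources used here, and values of miR-17-5p, miR-20a-5p, both miR-18a arms, the miR-19 pair and miR-92a-3p carry that uncertainty.

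Cochlear libraries held 124400 to 447419 counts (median 196885) and SOC libraries 8309669 to 18053698 (median 11706138), so that 1 cochlear count weighed far more than 1 SOC count in CPM, the count scaled to a common library total. SOC libraries also fell into sets that cross the time points. In set A (E16 replicates 2 and 3, P0 replicates 2 and 3) miR-99b-5p took over 10% of counts, in set C (P0 replicate 4, P16 replicates 2 and 3) miR-191-5p took under 1%, and set B held the other 4. No SOC P16 library was in set A and no E16 library in set C. Levels below are CPM after TMM scaling, and a miRNA is called lower or higher where the edgeR quasi-likelihood test gave a Benjamini-Hochberg adjusted p (FDR) under 0.05 over all miRNAs tested in that organ, the fold change was over 1.5 and no library of one time point overlapped those of the other. Folds are ratios of group mean levels unless a pooled ratio or a bound is named, and log2 fold changes are fitted values. PCR copies were not distinguished, so limits and intervals from counts cover counting error only. In bulk tissue, fewer cells that carry a miRNA and less of it per cell cannot be told apart.

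In the cochlea the cluster fell. Its 9 products together stood at 3796 ± 710 CPM (SD, n = 2) in E16 libraries, 1580 ± 174 (n = 4) by P0, 2.40-fold below E16, and 466 ± 87.7 (n = 4) by P16, 8.15-fold below. From E16 to P0, 6 of 9 products were called lower and 0 higher, where 16.6% of the 896 cochlear miRNAs tested were called lower and 7.81% higher. By P16 all 9 were lower than at E16, against 18.6% lower and 10.9% higher among all miRNAs. From P0 to P16, 3 of 9 were called lower and 0 higher, against 6.58% and 3.91%. In cochlear libraries 1 count stood for 1.74 to 7.78 CPM. The detection filter, above 1 CPM in 2 libraries of an age, was thus met there by 1 read in each. These background shares, and those of the organ comparison below, therefore include miRNAs too rarely read to be called. The products themselves were read 13 to 1014 times per E16 library. Their median log2 fold change was −2.83 from E16 to P0, also with the 2 products at 0 set to their bound, where the median over all miRNAs was 0. All 9 passed the detection filter in the cochlea, but miR-18a-5p, miR-19a-3p and miR-20a-3p passed through the E16 libraries alone and could thus only be called lower. Over the 6 that passed without E16, 3 were called lower at P0, 6 at P16 against E16 and 3 at P16 against P0. The shares over all miRNAs were not recomputed under that filter, so none stands beside these counts. At P0 the log2 changes of these 6 were −5.66 (miR-19b-3p), −2.83 (miR-20a-5p), −1.80 (miR-17-5p), −0.47 (miR-17-3p), −0.19 (miR-92a-3p) and 0.21 (miR-18a-3p). The median of −2.83 above includes the 3 products that could only be called lower.

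**Figure D1:**
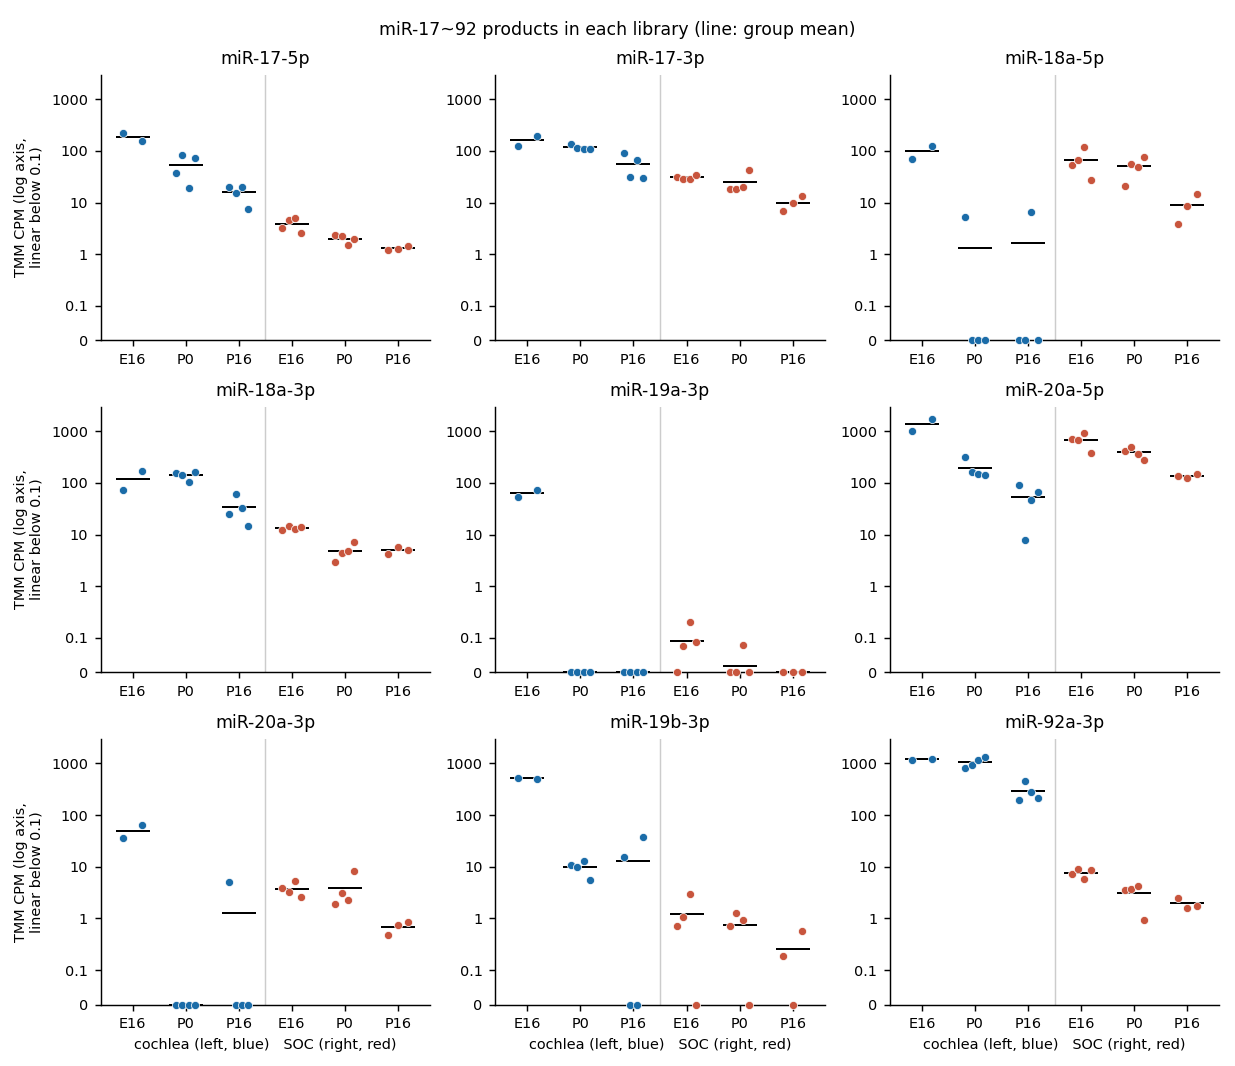
TMM-scaled CPM of each product in each of the 21 libraries (log axis, linear below 0.1), with cochlea in blue on the left and SOC in red on the right of each panel. Points are libraries and the line is the group mean, and miR-18a-5p, miR-19a-3p and miR-20a-3p sit at 0 in most or all cochlear libraries after E16.

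The seed pair miR-17-5p and miR-20a-5p, which recognize the same target sites, fell in steps. mmu-miR-20a-5p, the cochlear product of the cluster with the highest mean level at E16, stood at 1011 and 1762 CPM in the E16 libraries. At P0 it stood at 321, 166, 148 and 144 CPM, and at P16 at 91.8, 7.78, 46.5 and 66.9. No library overlapped another time point. Levels of miR-20a-5p were 7.12-fold lower at P0 than at E16 (log2 fold change −2.83, SE 0.43, FDR = 3.61e-09 by edgeR), 3.65-fold lower at P16 than at P0 (FDR = 0.000428, a call lost with all 21 libraries in 1 fit at FDR = 0.0672) and 26.0-fold lower at P16 than at E16 (FDR = 6.01e-20).

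mmu-miR-17-5p, the 5p product that gives the cluster its name, stood at 220 and 156 CPM at E16. At P0 its libraries read 37.4, 82.8, 19.3 and 72.0 CPM, resting on 3 to 17 counts, and at P16 20.4, 15.6, 19.9 and 7.43, resting on 1 to 4 counts. The E16 libraries lay above all others, whereas P0 and P16 overlapped. The fall was 3.56-fold at P0 (log2 −1.80, SE 0.61, FDR = 0.0161) and 11.9-fold at P16 (log2 −3.49, SE 0.69, FDR = 5.89e-06), and the P16 against P0 difference missed the threshold (log2 −1.69, SE 0.68, FDR = 0.0788). The P0 call depended on single libraries, since it was lost without either E16 library and without P0 replicate 1 or 3, as well as with all 21 libraries in 1 fit (FDR = 0.0807).

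mmu-miR-18a-5p, a close relative of miR-17-5p with a seed of its own, was read 26 and 73 times at E16 (70.7 and 127 CPM). It was read 1 time in all 4 P0 libraries together and 1 time in the 4 P16 libraries. The pooled level was 76.4-fold lower at P0 than at E16, with a 95% exact counting interval of 13.4 to 3049, and 64.0-fold lower at P16 (11.2 to 2552). The fitted test gave FDR = 2.9e-06 at P0 and 6.99e-06 at P16.

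The miR-19 pair, whose members share the seed GUGCAAA, was nearly lost from the cochlear libraries after E16. mmu-miR-19a-3p stood at 54.3 and 73.0 CPM at E16 (20 and 42 counts) and at 0 in all 8 later libraries. Against a limit of 3 counts over the group, that is at least 15.95-fold lower at P0 (FDR = 4.06e-05) and at least 13.4-fold lower at P16 (FDR = 7.06e-05). mmu-miR-19b-3p stood at 519 and 507 CPM at E16 (191 and 292 counts), at 10.7, 9.74, 12.8 and 5.54 CPM at P0 and at 15.3, 0, 0 and 37.2 CPM at P16. Both E16 libraries lay far above the rest, and the P0 and P16 libraries overlapped. Pooled over libraries, miR-19b-3p was 53.3-fold lower at P0 than at E16 (95% exact counting interval 25.7 to 133, FDR = 3.54e-16). At P16, on 8 counts in all, the pooled level was 39.0-fold lower (95% exact counting interval 19.6 to 90.9, fitted log2 −5.23, SE 0.64, FDR = 1.53e-14). That size rested on P16 replicate 4, since the ratio of group means was 39.1 with it and 100.6 without it (log2 −6.28, FDR = 1.35e-14).

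mmu-miR-92a-3p, the last product of the transcript and a member of the miR-25 seed family, kept another course. Its libraries read 1185 and 1246 CPM at E16, 808, 950, 1163 and 1341 at P0, and 199, 467, 286 and 216 at P16. E16 and P0 overlapped, and all P16 libraries lay below both. The change from E16 to P0 did not pass the test (log2 −0.19, SE 0.42, FDR = 0.776), and the level was then 3.65-fold lower at P16 than at P0 (log2 −1.87, SE 0.36, FDR = 6.68e-06) and 4.17-fold lower than at E16 (FDR = 6.32e-06).

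Among the 3p arms of hairpins whose 5p product is usually the kept one, miR-17-3p and miR-18a-3p also did not pass the test at P0. mmu-miR-17-3p read 125 and 196 CPM at E16, 134, 112, 109 and 111 at P0 and 91.8, 31.1, 66.4 and 29.7 at P16. It was 2.93-fold lower at P16 than at E16 (log2 −1.51, SE 0.57, FDR = 0.0298), a call lost without either E16 library and without P16 replicate 2 or 4, and its P16 libraries lay below all P0 libraries without passing the test (FDR = 0.173). mmu-miR-18a-3p read 73.4 and 167 CPM at E16, 155, 141, 103 and 161 at P0 and 25.5, 62.3, 33.2 and 14.9 at P16. The P0 libraries lay within the E16 range and the P16 libraries below both, by 4.12-fold against P0 (log2 −2.05, SE 0.56, FDR = 0.00281) and 3.54-fold against E16 (FDR = 0.0114), a ratio of 2.16 without E16 replicate 2 (FDR = 0.305). mmu-miR-20a-3p, by contrast, read 35.3 and 64.3 CPM at E16 (13 and 37 counts), 0 in all 4 P0 libraries and 1 count in the 4 P16 libraries. It was at least 12.9-fold lower at P0 (FDR = 0.000228), and pooled over libraries 32.3-fold lower at P16 (95% exact counting interval 5.54 to 1301, FDR = 0.00244). Without E16 replicate 2, the P16 calls of these 3 arms were lost, which left 6 of 9.

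**Figure D2:**
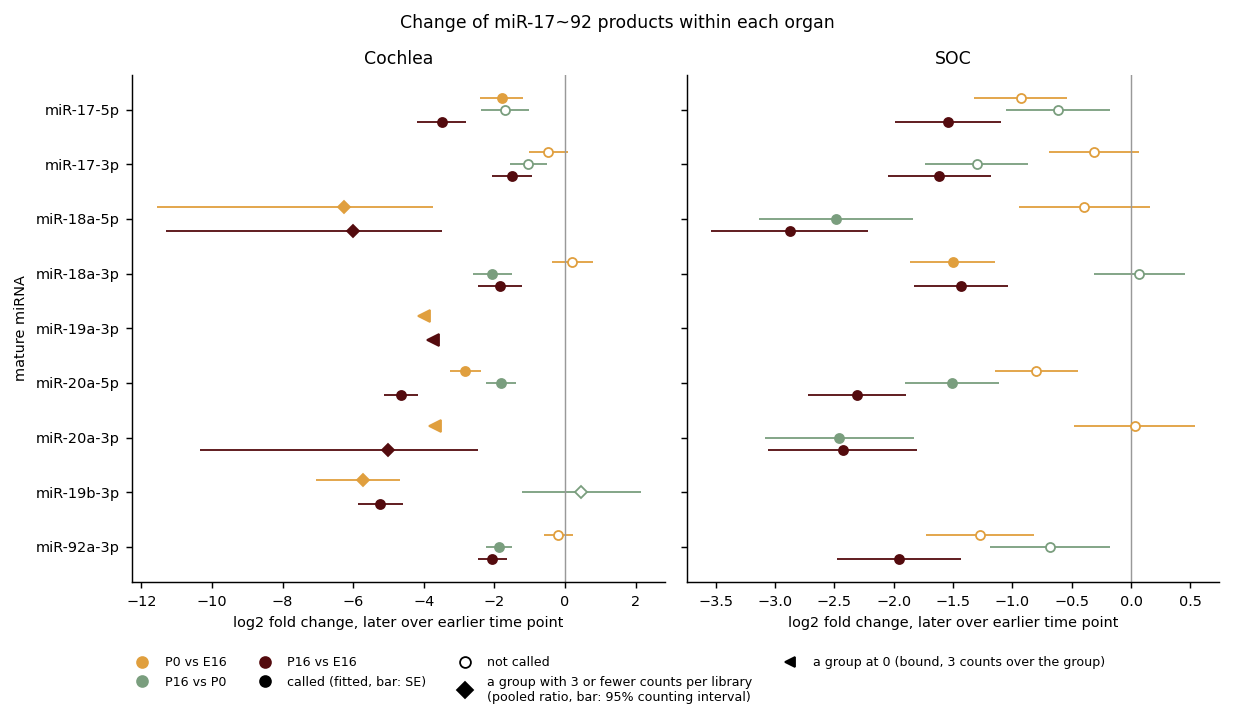
Log2 fold change of each product between time points, cochlea on the left and SOC on the right, with separate horizontal scales. Circles are fitted values with their SE (filled where called), diamonds are pooled ratios with a 95% counting interval where every library of a group held 3 or fewer counts, and triangles are bounds where a group was at 0. All called changes lie below 0, and in the cochlea miR-17-3p, miR-18a-3p and miR-92a-3p lie near 0 from E16 to P0.

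The 3 products that did not pass at P0 had the highest GC content of the 9, at 54.5% for miR-17-3p and miR-18a-3p and 57.1% for miR-92a-3p. The other 6 ranged from 34.8% for miR-19a-3p to 47.8% for miR-17-5p. The same order ran through the whole cochlear table: over the 764 of 896 tested miRNAs with a RefSeq sequence, GC content and the change from E16 to P0 had a Spearman correlation of 0.467, a description over miRNAs of the same libraries. Of the miRNAs outside the cluster, 41% of those under 40% GC were called lower (median log2 −2.51 over 100 miRNAs), as were 31.1% of those from 40 to under 50% (median −1.27 over 196), 6.75% of those from 50 to under 60% (median 0.32 over 252) and 1.93% of those at 60% or more (median 1.01 over 207). In the main fit, miR-20a-5p differed from the median of its GC bin by −0.32 log2 units at P0, and miR-17-5p by −0.53. The uncalled miR-17-3p, miR-92a-3p and miR-18a-3p differed by −0.79, −0.51 and −0.11. miR-19b-3p differed by −3.15, and miR-18a-5p, miR-19a-3p and miR-20a-3p lay further below their bins. These last products held 3 or fewer counts in each P0 library. When scaling factors were computed within these GC bins, an alternative chosen after the data were seen, 5 of the 6 P0 calls held. miR-17-5p then lost its call (log2 −0.89, FDR = 0.292 by edgeR), while miR-20a-5p remained 1.78 log2 units lower (log2 −1.78, FDR = 0.000141). All 9 products stayed lower at P16 than at E16 under that scaling, and the correlation was smaller there, at 0.301. Scaling within bins did not take out each bin's median change: miR-20a-5p lay −0.32 from its bin median in the main fit but at −1.78 under it. The calls kept under it therefore do not separate these changes from GC content, whose part in these results was not tested.

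**Figure D3:**
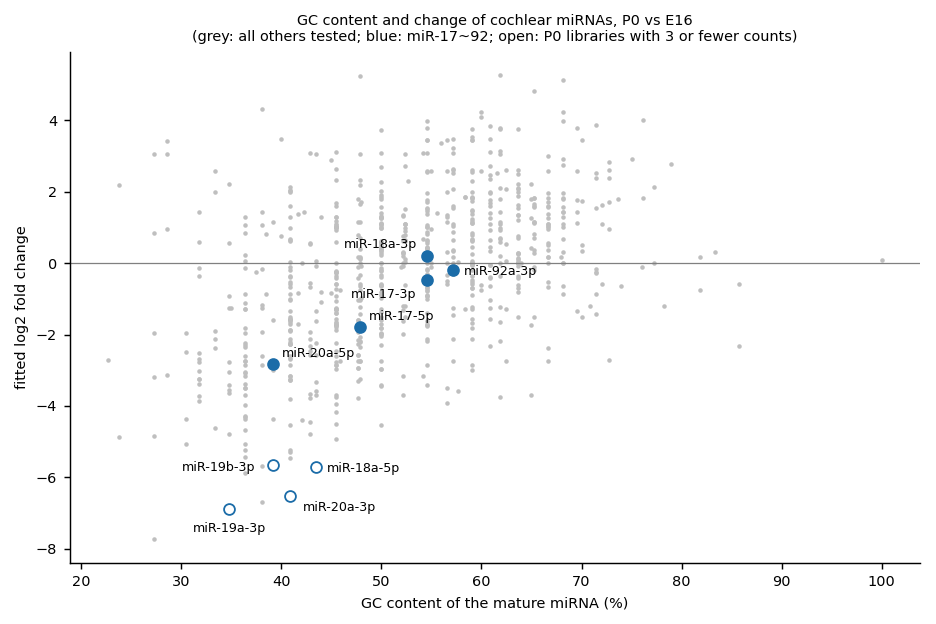
GC content (percent) of each mature miRNA tested in the cochlea against its fitted log2 fold change at P0 over E16, with miR-17~92 products in blue and all others in grey. Open symbols mark products whose P0 libraries held 3 or fewer counts each, for which the fitted size is not a bound, and the 3 products above 50% GC lie near 0 while the other 6 lie below.

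Sets of tissue markers moved in the cochlea at the same time. The summed level of 7 neuronal miRNAs (such as miR-124-3p and miR-9-5p) ranged from 4048 to 4538 CPM at E16, 796 to 1487 at P0 and 1261 to 1852 at P16, with 5 of 7 called lower and 1 higher at P0 and 4 lower and 2 higher at P16 against E16. Hair cell and epithelial miRNAs (miR-183 and miR-200 families and others) were listed for the labelled sensory epithelium, although the list was also read in the SOC, as given below. In the cochlea they summed to 66926 to 78452 CPM at E16, 40413 to 45808 at P0 and 19185 to 43981 at P16, with 3 of 10 lower at P0 and at P16. None of these 10 was at 0 in any cochlear group. Of blood and immune miRNAs, 4 of 5 tested were lower and 1 higher at P0 and 2 lower and 1 higher at P16, while their sum ranged from 1959 to 2465 CPM at E16, 2081 to 3147 at P0 and 6327 to 29459 at P16. The red blood cell miRNAs miR-451a and miR-144-3p were at 0 at P0 and P16. For the endothelial list, 1 of 1 was lower at P0 and 0 were called at P16, and of the mesenchymal and cartilage list 4 of 6 were lower and 1 higher at P0 and 2 lower and 1 higher at P16. In the muscle list 1 of 2 was lower at P0 and 1 of 2 higher at P16, with sums of 473 to 549 CPM at E16, 218 to 477 at P0 and 1097 to 4296 at P16, and its defining miR-133a-3p was at 0 in every cochlear library. The higher blood and immune sum at P16 was that of miR-150-5p, with means of 649 CPM at E16 and 14532 at P16. Every other miRNA of that list averaged less at P16 than at E16, such as miR-223-3p with 1447 and 574 CPM. The muscle sum was mostly miR-1a-3p (455 and 2857 CPM), while miR-206-3p averaged 55.9 and 52.1. Neither sum thus stands for its list as a whole. Of the oligodendrocyte list 2 of 2 tested were higher at P16 than at E16, but these are miR-338-3p and miR-338-5p, the arms of 1 hairpin. miR-219a-2-3p, also on that list, did not pass the filter, with means of 0.869, 0 and 6.64 CPM at E16, P0 and P16. Over all cochlear miRNAs tested, 16.6% were called lower and 7.81% higher at P0, and 18.6% and 10.9% at P16 against E16. The part of these tissue markers in the fall of the cluster was not tested.

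In the SOC 7 of the 9 products passed the detection filter, and all 7 were lower at P16 than at E16. The 9 together stood at 810 ± 267 CPM (SD, n = 4) in E16 libraries, 482 ± 69.5 (n = 4) by P0, 1.68-fold below E16, and 166 ± 18.5 (n = 3) by P16, 4.88-fold below. From E16 to P16 the 7 of 7 called lower compare with 20.0% called lower and 21.2% higher among the 694 miRNAs tested. From E16 to P0 only miR-18a-3p was called, 1 of 7, where 4.18% of all miRNAs were lower and 2.45% higher. From P0 to P16, 3 of 7 were called lower, against 8.07% lower and 8.07% higher. No product was called higher in either organ. The median log2 fold change of the 7 from E16 to P16 was −1.96, where the median over all miRNAs was 0.08.

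miR-20a-5p made up most of the cluster in the SOC. It stood at 720, 691, 941 and 377 CPM at E16, at 424, 493, 368 and 284 at P0, and at 138, 126 and 149 at P16. E16 and P0 overlapped in their ranges, and every P16 library lay below both. The level was 4.96-fold lower at P16 than at E16 (log2 −2.31, SE 0.41, FDR = 0.0011) and 2.85-fold lower than at P0 (log2 −1.51, SE 0.40, FDR = 0.0217). With GC-bin scaling the first change shrank to −1.11 (FDR = 0.0158) and the other to −0.51 (FDR = 0.281), which ended its call. GC content and change had a Spearman correlation of 0.259 and 0.301 over the 609 of 694 SOC miRNAs with a sequence in these comparisons. From E16 to P0 the difference missed the threshold (log2 −0.80, FDR = 0.206). Its seed partner miR-17-5p was rare, at 3.22, 4.55, 5.10 and 2.52 CPM at E16, 2.35, 2.22, 1.49 and 1.98 at P0 and 1.22, 1.27 and 1.44 at P16. The 3 time points did not overlap, although P16 and P0 came as near as 1.44 and 1.49 CPM. The fall from E16 to P16 was 2.94-fold (log2 −1.55, SE 0.44, FDR = 0.0156), and neither single step passed (FDR = 0.189 and 0.334).

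miR-18a-5p read 53.7, 66.7, 118 and 27.1 CPM at E16, 20.8, 55.1, 49.7 and 76.8 at P0 and 3.86, 8.48 and 14.7 at P16. The first 2 time points overlapped widely, and the P16 libraries lay below both. Its change from E16 to P16 was the largest of the 7, 7.36-fold lower (log2 −2.88, SE 0.66, FDR = 0.00494) and 5.60-fold lower than at P0 (log2 −2.48, SE 0.65, FDR = 0.0217). Its partner arm miR-18a-3p took the opposite order of steps, with 12.4, 14.7, 12.8 and 14.2 CPM at E16, 2.94, 4.35, 4.78 and 7.09 at P0 and 4.23, 5.72 and 5.07 at P16. P0 and P16 overlapped and E16 lay above both, so that the fall was 2.83-fold at P0 (log2 −1.504, SE 0.36, FDR = 0.0304) and 2.70-fold at P16 (FDR = 0.0127), with a P16 against P0 change of 0.07 on the log2 scale (SE 0.38, FDR = 0.907). The P0 call was lost without E16 replicate 2 or 3 or P0 replicate 1, 2 or 3.

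The other two 3p arms fell late. miR-17-3p read 31.1, 28.4, 29.0 and 34.2 CPM at E16, 17.95, 18.6, 20.0 and 42.3 at P0 and 6.77, 9.65 and 13.6 at P16. It was 3.07-fold lower at P16 than at E16 (log2 −1.62, SE 0.44, FDR = 0.0115), and although no P16 library overlapped P0, that step missed the threshold (log2 −1.30, FDR = 0.0531). miR-20a-3p read 3.87, 3.32, 5.30 and 2.61 CPM at E16, 1.94, 3.05, 2.27 and 8.26 at P0 and 0.470, 0.742 and 0.861 at P16, and was 5.46-fold lower at P16 than at E16 (log2 −2.43, SE 0.63, FDR = 0.00873) and 5.62-fold lower than at P0 (FDR = 0.0201). Without P0 replicate 4 the last ratio was 3.51 (log2 −1.78, FDR = 0.0179). In each of these arms the highest P0 value was that of P0 replicate 4, the set C library.

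miR-92a-3p was rare in the SOC, at 7.15, 8.95, 5.80 and 8.51 CPM at E16, 3.62, 3.80, 4.15 and 0.930 at P0 and 2.54, 1.59 and 1.72 at P16. E16 lay above both later groups, and P0 and P16 overlapped only through P0 replicate 4. The fall from E16 was 3.90-fold at P16 (log2 −1.96, SE 0.52, FDR = 0.0111) and missed the threshold at P0 (log2 −1.27, FDR = 0.119). miR-19a-3p was read 4 times in the 4 E16 libraries, 1 time at P0 and 0 times at P16, and miR-19b-3p did not exceed 3.00 CPM in any SOC library. Neither passed the filter, whereas miR-20a-5p from the same transcript was read 1184 to 12285 times per SOC library.

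Because the SOC library sets cross the time points unevenly, the fit was repeated with the set as a term. From E16 to P16, 6 of 7 calls were kept, with log2 changes down to −3.46 for miR-18a-5p, and that of miR-92a-3p was lost (log2 −1.11, FDR = 0.0621). From P0 to P16, the 3 calls were kept and miR-17-3p was gained (log2 −1.70, FDR = 0.000209). From E16 to P0, miR-18a-3p kept its call and miR-92a-3p gained one (log2 −1.11, FDR = 0.0164). Without the 4 set A libraries, which leaves 7, all 7 products were still lower at P16 than at E16 by −2.26 to −1.16 on the log2 scale, but only miR-20a-5p was called (log2 −2.03, FDR = 0.0347), the other 6 having FDR from 0.0649 to 0.137. Of the 7 calls from E16 to P16, that of miR-17-5p was lost without P16 replicate 1 or 2 and that of miR-92a-3p without P16 replicate 2 or 3. The 3-call count from P0 to P16 fell to 0 without P16 replicate 2 and to 1 without P16 replicate 3, and miR-20a-5p also lost its call there without P0 replicate 2. Some markers also moved: the miRNAs of the hair cell and epithelial list summed to 85957 to 166391 CPM at E16, 4448 to 28905 at P0 and 571 to 3556 at P16. Of these, 4 of 7 were lower at P0 and 6 of 7 at P16, and miR-200a-3p was at 0 at P0. Most of the E16 sum was miR-182-5p and miR-183-5p, with means of 92115 and 36456 CPM. The list was thus not particular to hair cells or epithelium in these libraries. Neuronal miRNAs, which define the labelled tissue, summed to 41809 to 120863, 64083 to 114423 and 46226 to 57550 CPM, with 1 of 7 lower and 2 higher at P16. From E16 to P16, 3 of 3 oligodendrocyte miRNAs were higher, 2 of them arms of the miR-338 hairpin. In the same step 4 of 6 mesenchymal and cartilage miRNAs and 1 of 2 muscle miRNAs were lower. Of blood and immune miRNAs 1 of 6 was lower and 2 higher, and the 1 endothelial miRNA tested was not called. Over all SOC miRNAs tested, 20.0% were called lower and 21.2% higher from E16 to P16, and 4.18% lower from E16 to P0. The neuronal and the blood and immune counts were near the shares at P16. The part of these markers in the change of the cluster was not tested.

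Whether the 2 organs changed by different amounts was tested directly, as an organ by time interaction over the 545 miRNAs tested in both. From E16 to P0, 2 of 7 products differed, where 11.9% of all did, and both were among the products that passed the cochlear filter through E16 alone. Of the 5 others, 0 differed by edgeR, 2 (miR-20a-5p and miR-18a-3p) had an unadjusted p under 0.05, and DESeq2 called the same 2. miR-18a-5p fell by more in the cochlea, with a SOC minus cochlea difference of 5.57 on the log2 scale (SE 1.22, FDR = 0.00367 by edgeR), and so did miR-20a-3p (9.21, SE 1.95, FDR = 0.00339). Both were at 0 or 1 count in all cochlear P0 libraries together, so that the size of these 2 differences depends on the prior count. With the replicate number as a block, which paired SOC libraries at E16 and P0, miR-18a-5p kept its call (5.47, FDR = 0.0300) and miR-20a-3p lost it (8.08, FDR = 0.0509). miR-20a-5p had a difference of 1.91 (FDR = 0.0764) and miR-18a-3p one of −1.87 (FDR = 0.0763), and neither passed. From E16 to P16, 1 of 7 passed, miR-20a-5p with 2.19 (SE 0.75, FDR = 0.0459), against 16.9% of all, so that the share of products was no higher than the background. That call was also lost with RLE size factors, without a filter on low counts and with the replicate block (2.09, FDR = 0.0893). It was lost when any 1 of 11 libraries was left out (cochlear E16 replicate 2, P0 replicate 2 and P16 replicates 2, 3 and 4, and SOC E16 replicates 2, 3 and 4, P0 replicate 1 and P16 replicates 2 and 3). From P0 to P16, 0 of 7 passed by edgeR, against 6.42% of all, 1 (miR-18a-3p, 2.12, FDR = 0.0562) had an unadjusted p under 0.05, and DESeq2 called 1.

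The composition of the cluster differed between the organs' libraries and, in the cochlea, over time. In the cochlea miR-20a-5p made up 35.8% of the cluster's counts at E16, 12.6% at P0 and 12.5% at P16, while miR-92a-3p went from 32.5% to 67.0% and 61.2%. In the SOC miR-20a-5p made up 83.9%, 80.8% and 83.2%, and miR-92a-3p 1.07%, 0.639% and 1.19%. Because each kit captures sequences with its own bias, these shares describe libraries and not the abundance of molecules. The cochlear shift from miR-20a-5p (39.1% GC) to miR-92a-3p (57.1%) also ran in the direction of the GC trend described above, whose part was not tested.

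Ratios within a library do not depend on scaling, and 8 of them were followed, with 48 tests over organs and time points. None passed after Benjamini-Hochberg adjustment (lowest 0.267), by exact two-sided permutation tests that cannot go below 0.0286 (0.0667 where 2 libraries meet 4). With these limits an adjusted value under 0.05 over 48 tests needed many tests at the limit at once. That none passed therefore does not show that the ratios were stable. In the SOC the log2 ratio of miR-18a-5p to its 3p arm was 3.31 ± 0.36 (SD, n = 4) at P0 and 0.65 ± 0.84 (n = 3) at P16, without overlap (exact permutation p = 0.0286, adjusted 0.267). The ratio of miR-20a-5p to miR-17-5p in the SOC was 7.44 ± 0.27 at E16 and 6.66 ± 0.10 at P16, also without overlap (exact permutation p = 0.0286, adjusted 0.267). In the cochlea, miR-17-5p had about as many reads as its 3p arm miR-17-3p at E16 (log2 ratio 0.24 ± 0.80, n = 2) and fewer at P0 (−1.28 ± 0.91, n = 4) and P16 (−1.51 ± 0.49, n = 4), without overlap between E16 and either (exact permutation p = 0.133 and 0.0667, adjusted 0.32 and 0.267). In the SOC miR-17-3p had more reads than miR-17-5p in every group, with log2 ratios of −3.03 ± 0.58, −3.51 ± 0.67 and −2.83 ± 0.39, as had miR-18a-3p over its 5p arm in the cochlea after E16. The same kit bias applies to these ratios, which are of reads and not of molecules. Ratios also keep the GC trend of the cochlear libraries. The fall of miR-17-5p (47.8% GC) against miR-17-3p (54.5%) ran in its direction, and the part of GC content was not tested.

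Because a seed and not a name selects targets, the cluster was also set within its seed families. The AAAGUGC family has 6 members, and miR-17-5p and miR-20a-5p together gave a mean of 7.48% of its counts in the cochlea at E16, 4.48% at P0 and 3.34% at P16. Most of the rest was miR-93-5p, which itself averaged 20420, 5181 and 1904 CPM at these ages. In the SOC the share was 11.8% to 20.2% at E16, 17.7% to 20.1% in P0 replicates 1 to 3 and 3.60% in P0 replicate 4. At P16 it was 7.79% in replicate 1, of set B, and 3.38% and 2.86% in replicates 2 and 3, of set C. The low shares were thus those of the set C libraries at both ages, and the step in the SOC means, 14.8% at P0 and 4.68% at P16, cannot be told apart from the sets. miR-92a-3p gave 1.53%, 2.52% and 2.26% of the AUUGCAC family in the cochlea, where miR-25-3p led, and no more than 0.0532% in any SOC library. Most reads of the miR-18 seed AAGGUGC, by contrast, came from the cluster. In the cochlea miR-18b-5p was at 0 in every library, but the family was read only 1 time after E16 at each age, which leaves the share unmeasured there. In the SOC miR-18a-5p gave 85.0% to 91.6% of the family at E16, 85.1% to 92.5% at P0 and 95.2% to 98.7% at P16.

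**Figure D4:**
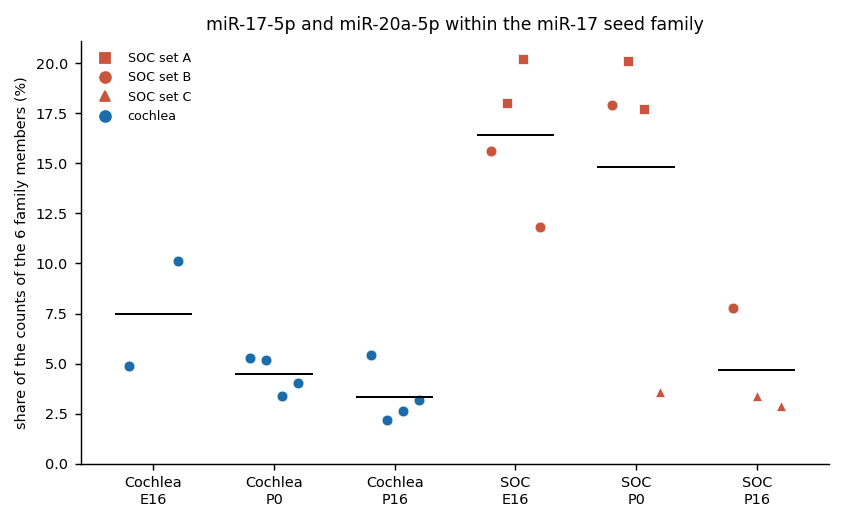
Share (percent) of miR-17-5p plus miR-20a-5p in the counts of the 6 miRNAs with seed AAAGUGC, per library, with the group mean as a line and the marker shape giving the SOC library set. SOC set C libraries lie between 2.86 and 3.60% at both P0 and P16, below all other SOC libraries.

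Where products of the paralog clusters were called, they were lower. Over all miRNAs, 16.6% of cochlear ones were called lower from E16 to P0, 18.6% from E16 to P16 and 6.58% from P0 to P16. The shares over all SOC miRNAs were 4.18%, 20.0% and 8.07%. Counts such as 1 of 6 for miR-106a~miR-363 in the cochlea at P0 were near these shares. miR-106b~25, which lies within the replication gene Mcm7 on chromosome 5, had 3 of 6 products called lower in the cochlea at P0 (miR-106b-5p, miR-93-5p and miR-25-3p), 5 of 6 from E16 to P16 and 4 of 6 from P0 to P16. In the SOC 0 of 6 were called at P0, 2 of 6 from E16 to P16 (miR-106b-5p and miR-106b-3p) and 0 of 6 from P0 to P16. mmu-miR-93-5p averaged 3198 ± 498 CPM (n = 4), 3176 ± 2807 (n = 4) and 3389 ± 1702 (n = 3) over the SOC ages, but the 3 later libraries of set C stood apart. At P0 replicates 1 to 3 read 1832, 1858 and 1630 CPM and the set C replicate 7385, and at P16 the set B replicate read 1614 and those of set C 3546 and 5008. Without set C the P0 mean was 1773 CPM. The E16 to P16 change of miR-93-5p differed between the organs (SOC minus cochlea 3.41, SE 0.76, FDR = 0.00427 by edgeR), and with the set as a term the difference was 1.96 (SE 0.49, FDR = 0.00390). Of miR-106a~miR-363, on chromosome X, 6 products were tested in the cochlea with 1, 2 and 0 called lower over the same 3 steps, and 5 in the SOC with 0, 5 and 3. There miR-20b-5p averaged 3.43 CPM at E16, 0.852 at P0 and 0.0353 at P16. Of the remaining arms of the miR-17~92 hairpins, 1 of 2 tested cochlear ones and 2 of 3 tested SOC ones were lower from E16 to P16 and 0 were called at the other steps. miR-92a-1-5p, from the same hairpin as miR-92a-3p, averaged 31.0, 18.8 and 0 CPM in the cochlea and 75.1, 75.6 and 45.9 in the SOC. No paralog or remaining arm was called higher.

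The miRNAs outside the list whose levels followed the cluster most closely were ranked by Pearson r with the mean centred log2 profile of the tested products, among miRNAs averaging at least 100 CPM. In the cochlea (239 candidates, 10 libraries) these were miR-1983 (r = 0.983), miR-542-3p (0.980), miR-25-3p (0.974), miR-335-5p (0.970) and miR-421-3p (0.959). In the SOC (174 candidates, 11 libraries) they were miR-130b-5p (r = 0.957), miR-335-5p (0.911), miR-214-5p (0.901), miR-449a-5p (0.900) and miR-106b-3p (0.887). These libraries share their time points, depth and sets, and the values are a description. miR-335-5p was named in both organs, with means of 28779, 867 and 459 CPM at E16, P0 and P16 in the cochlea and 879, 586 and 74.1 CPM in the SOC.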

How the data were processed

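Small RNA libraries of cochlea and SOC were sequenced as single reads. Per the study's methods, the authors aligned reads with Bowtie to a reference of mouse miRNAs from MirGeneDB; the submitters' processing notes name Bowtie2 2.2.5, DESeq2 and mm10. The deposited table holds raw counts per miRNA under miRBase names; how these counts were made is not given in the sources used here. Groups came from the sample labels. The authors' criteria (detection above 1 CPM in 2 or more libraries from one age, fold change over 1.5, FDR under 0.05, all replicates consistent) were applied with edgeR 4.0.16 in R 4.3.3 (glmQLFit and glmQLFTest, TMM), fitted per organ on all miRNAs that passed; the organ by time interaction used all 21 libraries. Library totals were 124400 to 447419 counts in the cochlea and 8309669 to 18053698 in the SOC, and 3 counts over a group set the limit for a group at 0; pooled ratios carry 95% exact (Clopper-Pearson) intervals. Ratios within a library had 0.5 counts added and were tested by exact two-sided permutation. Sequences and GC content came from RefSeq (9 of 9 products, 17 of 19 other listed miRNAs and 1415 of 1647 in all matched). The scripts were tested on simulated data. Named were the 9 products, the other arms of their hairpins, the paralog clusters and, per organ, the 5 miRNAs most like the cluster in profile. The products, marker lists, paralog list and library sets were chosen with earlier results of these data known. Alternatives covered DESeq2 1.42.0, scaling, filters, criteria, a replicate block, library sets, depth and leaving out each library. No pair of libraries agreed within counting noise (lowest chi-square per degree of freedom 5.95 over 28 pairs within groups). All same-numbered samples deviated together only in the SOC between E16 and P0 (4 pairs, r 0.251 to 0.490, as did 2 of 12 pairs with different numbers, both within set A). Between P0 and P16 in the SOC 1 of 3 same-numbered pairs did, at r = 0.548 and both of set B, and r went down to −0.601. SOC replicates 1 to 3 share a set at E16 and P0, so number and set overlap there. The labels do not say what a number shares. P-values measure the spread between these samples. Target prediction and the matching mRNA libraries were not used here.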

Additional observations from a re-analysis of the deposited data

Results flagged for a closer look

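In 4 of the 27 group-and-product combinations of 4 libraries that could be tested, 1 library stood apart from the rest by Dixon's criterion, which chance alone meets in about 1 of 20. In cochlear P0 replicate 1, miR-17-3p stood at 134 CPM (the others at 109 to 112) and miR-20a-5p at 321 (the others at 144 to 166). In SOC P0 replicate 4, miR-17-3p stood at 42.3 CPM (the others at 17.95 to 20.0) and miR-92a-3p at 0.930 (the others at 3.62 to 4.15); that library belongs to set C. The 2 organs' changes differed by the interaction test from E16 to P0 for miR-18a-5p (SOC minus cochlea 5.57 on the log2 scale) and miR-20a-3p (9.21), both at or near 0 in the cochlea at P0, and from E16 to P16 for miR-20a-5p (2.19), which was 26.0-fold lower in the cochlea and 4.96-fold lower in the SOC. The first pair passed the cochlear filter through E16 alone, and miR-20a-3p lost its call with the replicate block. The difference of miR-20a-5p, 1 of 7 products against 16.9% of all miRNAs, was lost without any 1 of 11 libraries, with RLE size factors, without a filter and with the block.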

How the results depend on the processing

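No product reversed direction in any call. The counts of products below show which calls held, and they were not set against the share over all miRNAs under each setting. Totals over all miRNAs moved too. From E16 to P0 in the SOC, 46 miRNAs were called in the main fit and 96 with the set covariate. In the cochlea the total for that step fell from 219 to 90 with at least 10 counts required in every library. Of the cochlear calls at P0, those of miR-18a-5p, miR-19a-3p, miR-20a-5p, miR-20a-3p and miR-19b-3p held in all 9 other settings in which they were tested and in 10 of 10 fits that left out a library. At P16 those of miR-17-5p, miR-18a-5p, miR-19a-3p, miR-20a-5p, miR-19b-3p and miR-92a-3p (10 other settings) did. One of these settings only dropped the criterion on overlap and could not lose a call. Libraries of the age outside a comparison were also among those left out, which tests its calls little. miR-18a-5p, miR-19a-3p and miR-20a-3p could only be called lower. Depth limits these results: with at least 10 counts required in every library, miR-92a-3p alone was left in the cochlea and the counts became 0 (E16 to P0), 1 (E16 to P16) and 1 (P0 to P16), with 0 organ differences from E16 to P0 and 0 from E16 to P16 because no product was left to test. SOC counts thinned to the median cochlear total gave 0, 2 and 0 calls over the same 3 steps, the 2 being miR-18a-5p (log2 −3.14, FDR = 0.00851 by edgeR) and miR-20a-5p (log2 −2.34, FDR = 0.00416). Without SOC set A the counts were 0, 1 and 0, and within set B alone 0, 1 and 0, both added after the data were seen. Set B holds 1 library each at P0 and P16, assumed to vary like the E16 pair, and its 2 single steps held 0 calls over all miRNAs too, so its counts say little about the products. For the SOC from E16 to P0, DESeq2 gave 2, the set covariate 2 and no filter on low counts 0; 1 fit of all 21 libraries gave 4 from E16 to P16. Organ differences from E16 to P0 numbered 4 with DESeq2, 4 with the set covariate and 1 with the replicate block; from E16 to P16 0 with RLE size factors, 2 with library totals, 0 without a filter and 0 with the block; and from P0 to P16 1 with DESeq2, 1 with library totals, 2 with the set covariate, 2 with GC-bin scaling and 1 with the block. The replicate block otherwise left the SOC at 1, 7 and 3 calls and the cochlea at 5, 6 and 3, where same-numbered samples did not deviate together and the lost calls were miR-17-5p at P0 and miR-17-3p, miR-18a-3p and miR-20a-3p at P16; GC-bin scaling with the replicate block gave 1, 6 and 1 in the SOC. The causes were not tested. Leaving out each library gave 5 to 6, 6 to 9 and 3 to 4 calls in the cochlea, 0 to 1, 5 to 7 and 0 to 3 in the SOC, and 2 to 4, 0 to 2 and 0 to 1 organ differences; the 4 came without SOC P0 replicate 4 and the 2 without cochlear P0 replicate 3. From P0 to P16 the 1 organ difference came without cochlear P0 replicate 3, cochlear P16 replicate 2 or SOC E16 replicate 4, P0 replicate 4 or P16 replicate 1. Over all miRNAs, library totals in place of TMM moved the median log2 change in the cochlea by −0.38 at P0 and −0.50 at P16 relative to E16 and in the SOC at P0 by 0.12, and the share of calls that were lower from 68.0% to 84.4%, 63.0% to 76.5% and 63.0% to 51.0%; GC-bin scaling moved that share from 62.8% to 52.3% in the cochlea from P0 to P16. Calls over all miRNAs ranged from 90 to 255 around 219 (cochlea, E16 to P0), 106 to 293 around 265, 52 to 135 around 94, 0 to 96 around 46 (SOC, E16 to P0), 104 to 366 around 286 and 0 to 248 around 112.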
